A study of Mus musculus with 40 samples.

Results

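The 8 genes described here encode AMPA-type glutamate receptors and proteins that associate with them. They were chosen by name: the pore-forming subunits Gria1, Gria2, Gria3 and Gria4, the transmembrane AMPA receptor regulatory proteins (TARPs) Cacng2, Cacng3 and Cacng8, and the cornichon homolog Cnih2. They are 8 of the 41388 features in the count files, and 7 of them had counts. AMPA receptors are tetramers of the Gria subunits and carry most fast excitatory transmission in the forebrain. The Gria2 subunit, once its transcript is edited in the pore region, keeps the channel largely impermeable to calcium, so that receptors without it pass calcium. TARPs and cornichons bind the receptor, bring it to the cell surface and the synapse, and slow its gating, and many GABAergic interneurons are known for receptors with little Gria2 subunit.

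The 40 mouse RNA-seq libraries came from 2 lines in which Cre switches on a ribosomal protein fused to GFP (EGFP/Rpl10a, from the ROSA locus), so that ribosomes of the Cre-expressing cells can be pulled down with an antibody to GFP (translating ribosome affinity purification, TRAP). In the RBP4-TRAP line Cre is driven by the Rbp4 transgene, which marks layer 5 pyramidal neurons, and in the VGAT-TRAP line by the gene of the vesicular GABA transporter (Slc32a1), which marks GABAergic neurons. Both lines carried the same reporter and were harvested at 21 days, with no treatment, and there was no line without Cre. There were 5 replicates per line, and for each the forebrains of several mice, male and female, were combined and divided into 4 samples. These were the whole cell homogenate (WCH), the tagged ribosomes of that homogenate (TRAP), the synaptoneurosome fraction (SNF) and the tagged ribosomes of the SNF (SynapTRAP, ST). The SNF is a gradient fraction that the study takes as enriched in neurites, without telling axons from dendrites. The labels call the tissue cortex, while the harvest was a rapid forebrain dissection. Levels are given as cpm, the usual library-size scaled counts, after mitochondrial, ribosomal RNA and tRNA genes were left out, with n = 5 in each of the 8 groups, and a replicate is called a pool.

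Total counts ranged from 14259535 to 22037703 per library, and 1 count was worth 0.0455 to 0.112 cpm, so that the 7 members with counts (at least 368 counts in every library) were far from the detection limit. Mitochondrial genes took at most 0.511% of counts in TRAP, 2.71 to 19.0% in ST and 11.2 to 41.9% in SNF. Pool 3 stood apart in both lines, with 40.2% (RBP4) and 41.9% (VGAT) in SNF and 15.8% and 19.0% in ST, the highest of each group. The labels held in TRAP: all 5 GABAergic neuron markers (Slc32a1, Gad1, Gad2, Dlx1, Dlx2) were higher and 4 of 5 excitatory neuron markers (Fezf2, Etv1, Bcl11b, Slc17a7, Slc17a6) lower in the VGAT line than in the RBP4 line, the exception being Bcl11b. Markers of striatal projection neurons summed to 2771 to 4358 cpm in VGAT TRAP against 407 to 653 cpm in its WCH, so the VGAT TRAP libraries held striatal as well as cortical GABAergic transcripts. In bulk libraries fewer cells of a type and less RNA per cell cannot be told apart.

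Markers of cell types that neither Cre line tags were high in ST. Mbp, a myelin protein gene of oligodendrocytes, was at 18307 to 27255 cpm in RBP4 ST and 16469.7 to 35124 cpm in VGAT ST, against 135 to 2705 cpm and 96.0 to 555 cpm in TRAP. The oligodendrocyte genes Mobp and Mog were also higher in every ST library than in every TRAP library of the same line. The astrocyte markers summed to 906 to 2816 cpm in RBP4 ST and 1296 to 2654 cpm in VGAT ST, and to at most 605 cpm in TRAP. The GABAergic markers reached 258 to 706 cpm in VGAT ST, overlapping the 205 to 330 cpm of RBP4 ST, where VGAT TRAP had 3027 to 5203 cpm. In 1 library labelled RBP4 ST, from pool 4, Slc32a1 was at 49.9 cpm, within the 23.3 to 51.3 cpm of VGAT ST and above the 10.9 to 19.7 cpm of the other RBP4 ST libraries. Among the other GABAergic markers of that library, Gad1 (171 cpm) and Dlx2 (0.807 cpm) lay within the range of the other RBP4 ST libraries. Gad2 (98.8 cpm) and Dlx1 (9.69 cpm) were above that range. The interneuron genes Sst (161 cpm) and Pvalb (22.8 cpm) were at their lowest RBP4 ST values there. The part of untagged cells in the ST values below was not tested.

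By the coordinates in the files, which are those of the GRCm38 mouse assembly, the pore subunit genes lie at chr11:57011387-57330244 on the forward strand (Gria1), chr3:80684936-80802791 on the reverse strand (Gria2), chrX:41400854-41678601 on the forward strand (Gria3) and chr9:4417899-4796234 on the reverse strand (Gria4). Cacng2 lies at chr15:77991748-78120028 on the reverse strand, Cacng3 at chr7:122670492-122769393 on the forward strand and Cnih2 at chr19:5092871-5098418 on the reverse strand. Each is protein coding. The library kit did not keep strand, so reads where Cacng2 and the antisense gene A730060N03Rik overlap could not be told apart. The same holds for the ends of Cnih2 and its neighbour Yif1a. Reads that fell on counted parts of both genes are ambiguous, and the counting left such reads out.

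Cacng8, which encodes a TARP abundant in the hippocampus, was listed at 0 in all 40 libraries and was not measured here. It lies at chr7:3390683-3415648 on the forward strand. Its neighbours Cacng7 and Cacng6 were also at 0 in all 40, and for each of these 3 genes the files hold a second feature of the same length on the patch sequence MG4151_PATCH, which was at 0 as well. The counting kept only reads that aligned to 1 place, and the values of 0 say nothing about whether Cacng8 was expressed.

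Levels of different genes were compared per kilobase of the gene's counted length. The libraries were primed at the 3′ end of transcripts, and the study describes a strong bias of its reads to that end, so counts need not scale with gene length and the order is also given without the division. In WCH of the RBP4 line Gria2 came first with 176 ± 10.1 cpm per kb (SD), followed by Cacng3 with 90.7 ± 16.7, Gria1 with 65.9 ± 8.85, Gria3 with 38.3 ± 4.75, Cnih2 with 30.6 ± 8.52, Cacng2 with 11.4 ± 1.33 and Gria4 with 10.8 ± 0.56. The ranges of Cacng3 and Gria1, of Gria3 and Cnih2, and of Cacng2 and Gria4 overlapped, while the other neighbours in this order were apart. WCH of the VGAT line gave the same order. In TRAP of the RBP4 line Cacng3 came first with 119 ± 22.0 cpm per kb and Gria2 next with 99.2 ± 11.1, their ranges overlapping. In TRAP of the VGAT line Cacng3 (75.2 ± 5.67 cpm per kb), Gria1 (65.3 ± 4.97) and Gria2 (62.3 ± 9.30) were close together, each overlapping the next. Undivided, the order changed. Gria2 then came first in TRAP of both lines, apart from Cacng3 in RBP4 (690 ± 77.0 against 329 ± 61.0 cpm) and overlapping Gria1 in VGAT (433 ± 64.7 against 395 ± 30.0 cpm), and Cacng3 was the fourth in WCH of both lines, below Gria1 and Gria3.

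**Figure D1:**
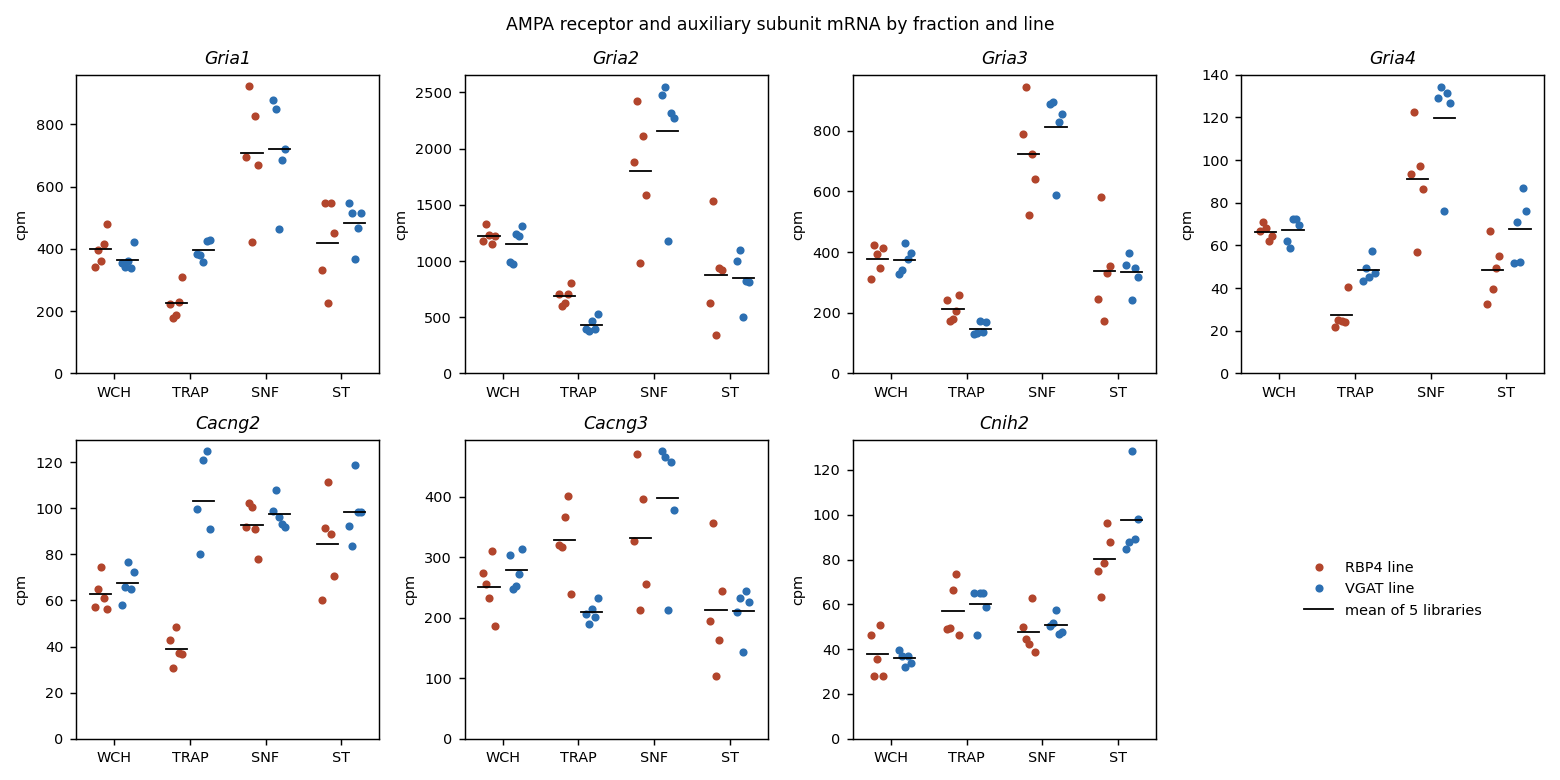
Level of the 7 measured genes in cpm (vertical axes start at 0) in WCH, TRAP, SNF and ST. Each point is 1 library, red for the RBP4 line and blue for the VGAT line, and the black bars are means of 5. The lines separate in TRAP for all but Cnih2 and overlap in WCH, SNF and ST, and Cnih2 alone is highest in ST.

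Ribosome-bound mRNA of the AMPA receptor subunits differed between the lines. Striatal markers summed to 2771 to 4358 cpm in VGAT TRAP and 93.5 to 228 cpm in RBP4 TRAP. Neuron type and brain region therefore cannot be told apart in this comparison. TRAP of GABAergic neurons held more Gria1, Gria4 and Cacng2 mRNA than TRAP of layer 5 neurons, and TRAP of layer 5 neurons held more Gria2 and Cacng3. Tested with edgeR's quasi-likelihood test over all genes (adjusted p at most 0.05, Benjamini-Hochberg), 2 of the 7 measured members were higher in RBP4 TRAP, where 12.9% of the 16898 genes tested were, and 3 were lower, where 15.1% were. In whole homogenate the members' log2 differences lay between -0.15 (Cacng3) and 0.13 (Gria1). In WCH 0 members passed in edgeR, DESeq2 or edgeR's likelihood ratio test and 0 reached an unadjusted p under 0.05, against 0.0118% of genes called by edgeR.

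Gria1 encodes a subunit that is added to synapses during potentiation. Its cpm in RBP4 TRAP were 224, 177, 188, 231 and 311 in pools 1 to 5. In VGAT TRAP they were 383, 381, 358, 424 and 427. Every VGAT library was above every RBP4 library, and the level was 1.75-fold lower in RBP4 TRAP (log2 fold change -0.80, SE 0.18, edgeR adjusted p = 0.00111).

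Gria2, the subunit that sets calcium permeability, went the other way. It was at 705, 604, 630.3, 711 and 800.4 cpm in RBP4 TRAP. In VGAT TRAP it was at 395, 375, 470.2, 396 and 529 cpm. The groups did not overlap, with a difference of 0.67 (log2, SE 0.23, edgeR adjusted p = 0.0304) that kept its size but missed the threshold without RBP4 pool 1, 4 or 5 or without VGAT pool 1, 2 or 4 (adjusted p from 0.0541 to 0.08).

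Gria3, a subunit that pairs mostly with Gria2, was at 211 ± 38.0 cpm (SD) in RBP4 TRAP and 148 ± 20.6 in VGAT TRAP. The ranges met without overlapping (lowest RBP4 value 171.9, highest VGAT value 171.7), and the difference of 0.51 (log2, SE 0.21) missed the threshold (edgeR adjusted p = 0.0615), though it passed with TMM scaling (0.0259) and in DESeq2 (0.0368). Gria4, a fast-gating subunit known from parvalbumin interneurons, was at 21.9, 25.3, 24.5, 24.3 and 40.7 cpm in RBP4 TRAP and at 43.2, 49.6, 45.2, 57.5 and 47.3 cpm in VGAT TRAP. The groups did not overlap (log2 fold change -0.83, SE 0.18, edgeR adjusted p = 0.000509). The highest RBP4 value, in pool 5, came in the library in which Gad1, a GABA-synthesising enzyme, was at 331 cpm against 58.3 to 95.0 cpm in the other 4, and the part of such RNA in the Gria4 value was not tested.

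Because a share within a library does not depend on how libraries are scaled, the composition of the pore subunits was also computed, as the share of each gene in the summed cpm per kb of Gria1 to Gria4. Gria2 made up 61.3 ± 2.19% (SD) in RBP4 TRAP and 41.2 ± 3.09% in VGAT TRAP, while Gria1 made up 22.8 ± 1.81% and 43.5 ± 3.24%. The lowest Gria2 share in RBP4 TRAP (57.8%) was above the highest in VGAT TRAP (44.6%), and in VGAT TRAP the shares of Gria1 and Gria2 overlapped. Which of the 2 had the larger mean in VGAT TRAP depended on the division by length, since undivided counts gave Gria2 42.1 ± 2.83% and Gria1 38.7 ± 3.19%. The undivided shares in RBP4 TRAP were 60.0 ± 2.10% and 19.4 ± 1.59%, and both genes stayed without overlap between the lines. Gria3 took 13.2 ± 0.916% against 9.96 ± 0.913%, and Gria4 2.72 ± 0.470% against 5.28 ± 0.721%, also without overlap. In WCH the Gria2 share was 60.5 ± 2.28% (RBP4) and 60.1 ± 1.79% (VGAT), so RBP4 TRAP differed from its homogenate by 0.823 points in Gria2 and 0.178 points in Gria1, with overlapping ranges, and VGAT TRAP by -18.8 and 21.5 points, without overlap.

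**Figure D2:**
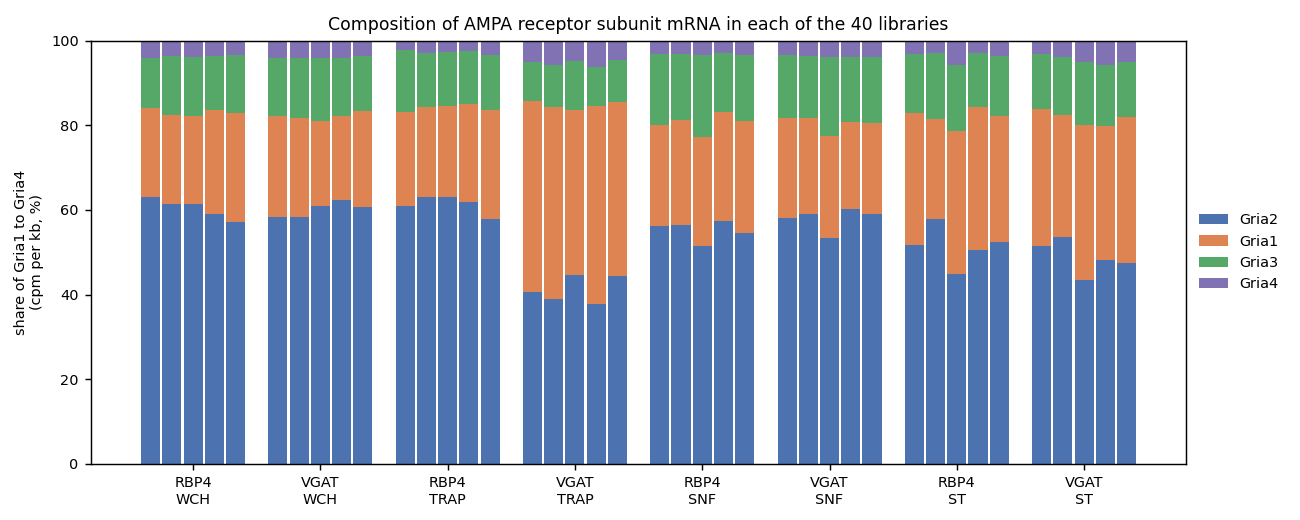
Share (%) of Gria2, Gria1, Gria3 and Gria4 in their summed cpm per kb, 1 bar per library, pools 1 to 5 from left to right within each group. Gria2 (blue) fills 57.8 to 63.1% of RBP4 TRAP bars and 37.9 to 44.6% of VGAT TRAP bars, and 43.4 to 57.8% of the ST bars of both lines.

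Cacng2 (stargazin), the TARP first identified through the stargazer mouse, gave the largest difference between the lines among the members. Its cpm in RBP4 TRAP were 42.7, 30.6, 48.3, 37.2 and 36.8. In VGAT TRAP they were 99.7, 80.1, 121, 125 and 90.9. All VGAT values lay above all RBP4 values, a 2.64-fold difference (log2 fold change -1.40, SE 0.16, edgeR adjusted p = 3.18e-08).

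Cacng3, a TARP of cortical principal neurons, showed the opposite difference. It was at 321, 317, 367, 401 and 239.6 cpm in RBP4 TRAP. In VGAT TRAP it was at 206, 190.4, 214, 202 and 233 cpm. The groups did not overlap, and the difference of 0.66 (log2, SE 0.21, edgeR adjusted p = 0.0186) missed the threshold without RBP4 pool 4 (0.0517) or VGAT pool 2 (0.0551). The share of Cacng2 was taken in the summed cpm per kb of Cacng2 and Cacng3, the 2 TARPs among the measured members. It was 5.75 ± 1.16% in RBP4 TRAP and 19.9 ± 3.08% in VGAT TRAP. In WCH it was 11.4 ± 2.16% and 11.0 ± 1.70%, and in both lines TRAP and WCH did not overlap. The size of this share also depended on the division, with 10.8 ± 2.07% and 32.9 ± 4.26% in TRAP and 20.3 ± 3.46% and 19.7 ± 2.74% in WCH for undivided counts, in the same order and again without overlap.

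Cnih2, which keeps AMPA receptors open longer, did not pass between the lines in TRAP, with 56.9 ± 12.1 cpm (SD) in RBP4 and 60.0 ± 8.28 in VGAT (log2 fold change -0.08, SE 0.17, edgeR adjusted p = 0.776).

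**Figure D3:**
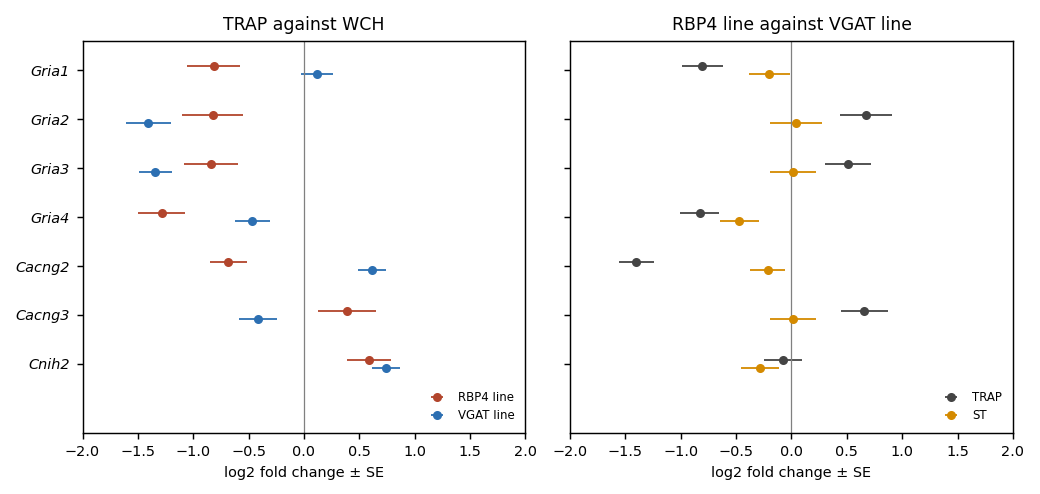
Log2 fold change with its standard error for each measured gene. Left, TRAP against WCH in the RBP4 line (red) and the VGAT line (blue), and right, the RBP4 line against the VGAT line in TRAP (grey) and in ST (orange). Gria1 and Cacng2 differ most between the lines at left, and the grey TRAP points reach from -1.40 to 0.67 while the orange ST points lie between -0.47 and 0.04.

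Each neuron type was also compared with its own homogenate. In RBP4 TRAP 5 of 7 members were lower than in WCH (31.5% of 17043 genes were lower) and 1, Cnih2, was higher (8.37% were). In VGAT TRAP 4 of 7 were lower (41.8% of 16990 genes) and 2, Cacng2 and Cnih2, were higher (21.0%). These counts depend on the scaling, since the median log2 fold change of all genes was -0.34 (RBP4) and -0.31 (VGAT) as scaled by library size, and -0.05 and -0.06 with TMM factors. With TMM factors RBP4 had 2 members higher and 1 lower, VGAT 3 higher and 2 lower, and every member kept its sign. In RBP4 the TMM values of Gria1, Gria2, Gria3 and Cacng2 were -0.54, -0.54, -0.56 and -0.39 (log2) and did not pass (edgeR adjusted p from 0.0545 to 0.107), while Gria4 did (-1.004, adjusted p = 0.000667). As scaled by library size, Cnih2 in RBP4 missed without pool 2 (adjusted p = 0.0709) or 3 (0.105), Gria2 in RBP4 without pool 1 (0.0612) or 4 (0.0645), Cacng3 in VGAT without pool 1, 2, 4 or 5 (0.0933 to 0.132) and Gria4 in VGAT without pool 5 (0.0568).

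Gria2 and Gria3 fell furthest in the GABAergic neurons. Gria2 changed by -1.41 (log2, SE 0.20, edgeR adjusted p = 5.23e-06) from 1149 ± 154 cpm in VGAT WCH to 433 ± 64.7 in TRAP, and Gria3 by -1.34 (SE 0.15, adjusted p = 1.6e-07) from 375 ± 42.0 to 148 ± 20.6. Neither overlapped its homogenate, with TRAP below WCH in 5 of 5 pools. Gria1 changed by 0.12 there (SE 0.15, edgeR adjusted p = 0.498), from 364 ± 34.6 to 395 ± 30.0 cpm, while in RBP4 it went from 398 ± 53.5 to 226 ± 52.5 cpm (-0.82, SE 0.24, adjusted p = 0.00868). Cacng2 rose in VGAT TRAP by 0.61 (SE 0.13, adjusted p = 0.000291) and was lower in RBP4 TRAP by the same test (-0.68, SE 0.17, adjusted p = 0.00307).

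The difference between these changes was tested in 1 model of both lines. The TRAP less WCH change was lower in the RBP4 line for 3 members: Gria1 (-0.93, SE 0.26, edgeR adjusted p = 0.0128), Gria4 (-0.82, SE 0.25, 0.0241) and Cacng2 (-1.29, SE 0.22, 7.85e-05), where 6.97% of genes were lower. Cacng2 passed in every setting tried. Gria1 missed narrowly without VGAT pool 4 (0.0504), and Gria4 missed without RBP4 pool 1, 3 or 4 or VGAT pool 2 or 4 (0.0532 to 0.0831). For Gria2 the difference of 0.58 (SE 0.33, adjusted p = 0.307), for Gria3 of 0.50 (SE 0.29, adjusted p = 0.319) and for Cnih2 of -0.15 (SE 0.24, adjusted p = 0.798) were not past the threshold, and for Cacng3 the 0.80 (SE 0.30, adjusted p = 0.077) passed with TMM factors (0.89, adjusted p = 0.0321).

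In the synaptoneurosome fraction all 7 measured members rose against homogenate in the VGAT line, against a background of 19.3% of genes. In the RBP4 line 3 rose (Gria1, Gria3 and Cacng2), against 13.4% of genes, and the other 4 had log2 fold changes from 0.33 to 0.56 that did not pass (edgeR adjusted p from 0.0734 to 0.204). The median of all genes was -0.50 (RBP4) and -0.52 (VGAT), so that relative to it the members lay from 0.83 to 1.44 and from 1.02 to 1.63 higher. With TMM factors, which bring the median to -0.17 in both lines, all 7 passed in each line. When mitochondrial and the other excluded genes were kept in the library sizes, 1 member passed in RBP4 and 4 in VGAT.

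Gria3 rose most, with values of 790.4, 945, 523, 722 and 642 cpm in RBP4 SNF. In VGAT SNF they were 889.7, 895, 588, 830.3 and 855 cpm. In both lines these lay above all WCH values (312 to 424 and 329 to 432 cpm), with log2 fold changes of 0.94 (SE 0.24, edgeR adjusted p = 0.00335) and 1.11 (SE 0.15, adjusted p = 1.67e-06). Gria1 rose by 0.83 (SE 0.24, adjusted p = 0.00644) and 0.98 (SE 0.15, adjusted p = 8.05e-06).

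Gria2 was at 1883, 2419.7, 979.8, 2116 and 1589.9 cpm in RBP4 SNF. In VGAT SNF it was at 2475, 2549, 1182, 2315 and 2270.3 cpm. Pool 3, with the high mitochondrial share, was the lowest in both lines, and was the 1 pool of each line in which SNF was below WCH. The change was 0.56 in RBP4 (SE 0.28, edgeR adjusted p = 0.0957) and 0.91 in VGAT (SE 0.20, adjusted p = 0.000476). Without pool 3 the number of members higher in RBP4 SNF went from 3 to 5, with Gria2 (0.71, edgeR adjusted p = 0.0182) and Gria4 (0.60, adjusted p = 0.0361) added. The auxiliary subunits rose in VGAT by 0.53 (Cacng2, SE 0.13, adjusted p = 0.000974), 0.52 (Cacng3, SE 0.18, 0.0136) and 0.50 (Cnih2, SE 0.13, 0.00146). Of these, Cacng3 missed without pool 1, 2 or 4 (0.0578 to 0.0963).

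Against SNF, ST had lower pore subunits and higher Cnih2 in both lines. In RBP4 ST against SNF 4 of 7 members were lower, Gria1 to Gria4 (5.46% of genes were lower), and 1 was higher, Cnih2 (5.64%). In VGAT 5 were lower, Gria1 to Gria4 and Cacng3 (11.2%), and 1 was higher, Cnih2 (16.3%). The counts were the same with TMM factors. In the RBP4 line they changed when single pools were left out. Without pool 1, 0 members passed in either direction (edgeR adjusted p of Gria1 to Gria4 and Cnih2 from 0.0587 to 0.189). Without pool 4, 1 fell (Gria3), and without pool 3, 0 rose (Cnih2, adjusted p = 0.0683). Gria1 there also missed without pool 2 (0.0783) or 5 (0.0511). The signs held for Gria1 to Gria4 and Cnih2 in every setting tried. Without pool 1 the log2 changes in RBP4 were -0.68, -0.93, -0.98 and -0.78 for Gria1 to Gria4 and 0.79 for Cnih2. These tests did not use the pairing of samples within a pool. With the pool as a block and all pools kept, the same genes passed in RBP4 (edgeR adjusted p from 0.00127 to 0.0101). From SNF to ST in RBP4, 0 of 5 excitatory neuron markers rose and 1 fell. There 2 of 4 oligodendrocyte and 2 of 3 endothelial markers rose, and 0 of 4 astrocyte and 0 of 4 microglia markers were called. In VGAT 2 of 5 GABAergic markers rose, with 2 of 4 oligodendrocyte, 2 of 3 endothelial and 1 of 4 astrocyte markers. There 1 oligodendrocyte and 2 of 4 microglia markers fell. The part of untagged cells in the members' changes was not tested.

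Gria3 fell most in RBP4, by 1.10 on the log2 scale (SE 0.24, edgeR adjusted p = 0.00454), to 244, 582, 171, 332 and 355 cpm in ST. Gria2 fell by 1.04 (SE 0.28, adjusted p = 0.0166), to 631, 1530.1, 346, 941 and 917 cpm. In VGAT Gria2 fell most, by 1.35 (SE 0.20, adjusted p = 2.79e-05), to 1000.4, 1099.9, 502, 823 and 817 cpm. ST was below SNF of the same pool in 5 of 5 pools for Gria1 to Gria4 in both lines, and pool 3 was the lowest ST library for Gria1, Gria2 and Gria3 in each. Gria1 fell by 0.75 in RBP4 (SE 0.24, adjusted p = 0.0412) and 0.58 in VGAT (SE 0.15, adjusted p = 0.0052), and its share among the pore subunits went from 25.3 ± 1.01% to 30.4 ± 4.15% (overlapping) and from 22.5 ± 1.49% to 32.8 ± 2.93% (not overlapping).

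Cnih2 was at 49.7, 44.5, 42.2, 62.8 and 38.6 cpm in RBP4 SNF and at 75.0, 63.1, 78.6, 96.3 and 87.9 cpm in RBP4 ST. In the VGAT line it was at 50.4, 51.8, 57.3, 46.7 and 47.8 cpm in SNF and at 84.6, 87.8, 128, 89.0 and 98.3 cpm in ST. Every ST library exceeded every SNF library of its line, by 0.75 (log2, SE 0.20, edgeR adjusted p = 0.0157) in RBP4 and 0.94 (SE 0.13, adjusted p = 5.82e-06) in VGAT. ST was also above TRAP, by 0.49 (SE 0.20, adjusted p = 0.0375) and 0.70 (SE 0.12, adjusted p = 3.28e-05), and ST had the highest mean of the 4 fractions in each line.

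A gene is a local translation candidate by the rule applied here where SNF exceeds WCH and ST exceeds SNF, each at an unadjusted p under 0.05. In the VGAT line 220 genes met it, 1.29% of those tested, and Cnih2 was the 1 member among them. In the RBP4 line 71 genes met it, 0.417%, with 0 members. There Cnih2 met the ST step (unadjusted p = 0.000915) but not the SNF step (0.33, SE 0.20, unadjusted p = 0.108), and with TMM factors, in DESeq2 or with the pool as a block it met both. Cacng2 met the SNF step in both lines and stood in ST against SNF at -0.13 (SE 0.17, edgeR adjusted p = 0.671) and 0.01 (SE 0.13, adjusted p = 0.971).

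**Figure D4:**
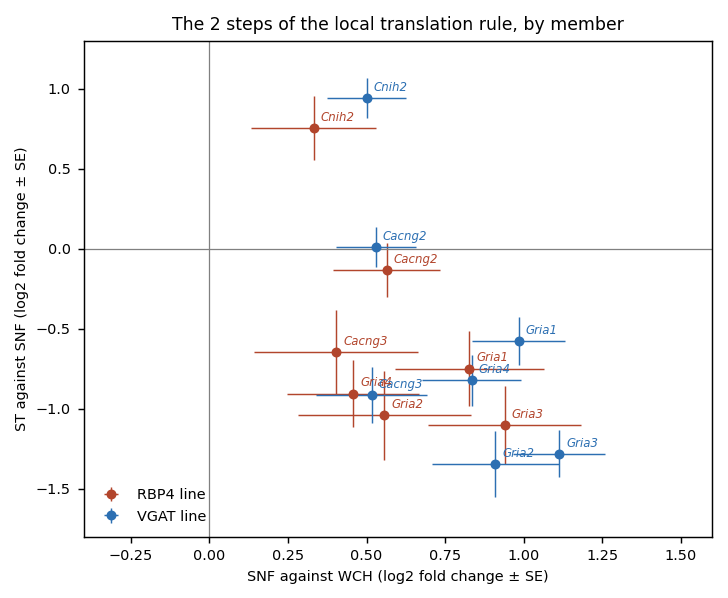
Log2 fold change of SNF against WCH (horizontal) and of ST against SNF (vertical), each with its standard error, for the 7 measured genes in the RBP4 line (red) and the VGAT line (blue). Cnih2 is above 0 on both axes, at 0.33 and 0.75 in RBP4 and 0.50 and 0.94 in VGAT, Cacng2 is near 0 vertically, and the other genes are to the right of 0 and below it.

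Against TRAP, ST of the RBP4 line had 5 members higher (26.0% of genes were) and 1 lower, Cacng3 (29.1%), and ST of the VGAT line had 4 higher (37.5%). The members higher were Gria1, Gria3, Gria4, Cacng2 and Cnih2 in RBP4 and Gria2, Gria3, Gria4 and Cnih2 in VGAT. Cacng3 went from 329 ± 61.0 to 213 ± 95.6 cpm in RBP4 (-0.63, SE 0.26, edgeR adjusted p = 0.0456), and it missed with TMM factors (0.0773) and without pool 1, 3 or 4 (0.13 to 0.219). Gria3 in RBP4 missed without pool 2 (0.32, adjusted p = 0.258) or 4 (0.0762), Cnih2 in RBP4 without pool 1, 2, 3 or 5 (0.0502 to 0.111), and Gria4 in VGAT without pool 5 (0.0598). Gria1 in VGAT passed without pool 3 (0.34, adjusted p = 0.0153). Without the RBP4 ST library of pool 4, in which Slc32a1 was high, Cacng3 (0.105) and Cnih2 (0.0927) missed in this comparison, and no other call on a member changed in the comparisons with ST. Cacng2 rose 2.16-fold in RBP4 (log2 fold change 1.11, SE 0.17, edgeR adjusted p = 1.16e-05), to 60.3, 91.5, 111, 88.9 and 70.4 cpm, above every TRAP library.

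The differences between layer 5 and GABAergic neurons seen in TRAP did not pass in ST. In TRAP 5 of 5 GABAergic markers were lower in RBP4, and 4 of 5 excitatory markers were higher. In ST 0 of 5 in each list were called, and the median log2 differences went from -4.74 to -0.72 and from 2.965 to 0.19. Of the cortical interneuron markers 2 of 4, and of the striatal markers 2 of 5, were still lower in RBP4 ST. Because most markers did not pass either, ST cannot decide whether the neuron types differ in the members. No member was called between RBP4 ST and VGAT ST (0 of 7 in edgeR's quasi-likelihood and likelihood ratio tests and in DESeq2, with 1 at an unadjusted p under 0.05, Gria4), where 0.325% of genes were. Cacng2 was at 84.5 ± 19.9 and 98.2 ± 12.9 cpm (SD) in ST, with a difference of -0.22 (log2, SE 0.16, edgeR adjusted p = 0.62). Gria1 differed by -0.20 (SE 0.18, adjusted p = 0.718), Gria2 by 0.04 (SE 0.23, adjusted p = 0.97) and Gria4 by -0.47 (SE 0.17, adjusted p = 0.287). Gria3 and Cacng3 differed by 0.015 and 0.0119 (SE 0.21 each, adjusted p = 0.988 and 0.99), and Cnih2 by -0.28 (SE 0.17, adjusted p = 0.538). A p that misses the threshold does not show equal levels: 1 standard error of Gria2 in ST was 0.23, and leaving out RBP4 pool 2, which held its highest ST value, moved the difference to -0.26. The Gria2 share was 51.5 ± 4.68% in RBP4 ST and 48.9 ± 3.90% in VGAT ST.

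In the synaptoneurosome fraction itself, which holds RNA of all cells, the lines gave 0 of 7 members called, in edgeR's 2 tests and in DESeq2 (1 at an unadjusted p under 0.05, Gria4 at -0.39), where 0.0169% of genes were called. The other members lay between this and -0.03 (Gria1).

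Whether the step from TRAP to ST differed between the lines was tested directly. It was larger in RBP4 for 1 of 7 members, Cacng2 (1.18, SE 0.22, edgeR adjusted p = 0.00035), where 5.02% of genes were higher. Cacng2 went from 39.1 to 84.5 cpm in RBP4 and from 103 to 98.2 cpm in VGAT, so that RBP4 ST stood near the 92.8 ± 9.67 cpm of RBP4 SNF. Over the same step in RBP4 markers of many cell types rose, where 26.0% of all genes did. Among them were all 4 astrocyte, all 4 oligodendrocyte and all 4 microglia markers, 3 of 5 GABAergic and 4 of 5 striatal markers. In VGAT all 4 markers of each of these glial types rose as well, while Cacng2 did not (-0.07, SE 0.13, edgeR adjusted p = 0.611). There 5 of 5 GABAergic and 5 of 5 striatal markers fell. The part of untagged cells in the rise of Cacng2 in RBP4 was not tested. For the other 6 the difference did not pass. Gria1 stood at 0.60 (SE 0.26, edgeR adjusted p = 0.14) and passed in DESeq2 (0.70, adjusted p = 0.0333). Gria4 stood at 0.36 (SE 0.25, adjusted p = 0.409) and Cnih2 at -0.21 (SE 0.24, adjusted p = 0.67). Gria2, Gria3 and Cacng3 stood at -0.63, -0.50 and -0.65 (SE 0.33, 0.29 and 0.30, adjusted p = 0.246, 0.312 and 0.178), and these 3 passed without RBP4 pool 2 (0.0268 to 0.0377). The difference between the lines in the step from SNF to ST was not called for any member (0 of 7 in edgeR's 2 tests and in DESeq2, 0 at an unadjusted p under 0.05), with differences from -0.19 (Cnih2) to 0.30 (Gria2), and edgeR called 0.0% of genes.

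Of 17 further auxiliary subunits and assembly factors of the receptor, 15 could be tested between the lines, as Cacng7 and Prrt2 were not counted or too low. In TRAP 2 were higher in RBP4 (12.9% of all genes were) and 6 lower (15.1%). Cnih3, the cornichon nearest to Cnih2, was at 168 ± 23.0 cpm in RBP4 TRAP and 49.1 ± 9.18 in VGAT TRAP (log2 fold change 1.78, SE 0.17, edgeR adjusted p = 1.44e-09), and Frrs1l, an assembly factor of the endoplasmic reticulum, was higher by 0.57 (SE 0.14, adjusted p = 0.00299). The TARP Cacng4 was at 12.3 ± 3.12 and 62.9 ± 3.64 cpm (-2.35, SE 0.29, adjusted p = 1.84e-07), the same direction as Cacng2, and Shisa8 was low throughout (0.222 and 2.74 cpm, -3.59, SE 0.36, adjusted p = 3.56e-09). Cacng5, a further TARP named after its values were seen, was at 6.83 ± 1.96 and 19.4 ± 5.70 cpm (-1.50, SE 0.25, adjusted p = 2.02e-05). Of the 4 TARPs with counts, Cacng3 was thus higher in layer 5 TRAP, and Cacng2, Cacng4 and Cacng5 in GABAergic TRAP.

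Genes of this list also rose in the synaptoneurosome fraction. In SNF against WCH 11 of 16 rose and 1 fell in RBP4, where 13.4% of all genes were higher and 36.1% lower. In VGAT 13 of 15 rose and 1 fell, where 19.3% were higher and 45.2% lower, with list medians of 0.73 and 0.89 against -0.50 and -0.52 for all genes. Gsg1l, an auxiliary subunit that depresses receptor currents, rose by 1.22 (SE 0.18, edgeR adjusted p = 0.000103) and 1.08 (SE 0.12, adjusted p = 4.02e-07), and Shisa9 by 0.98 (SE 0.26, adjusted p = 0.00403) and 1.06 (SE 0.14, adjusted p = 1.72e-06). Syndig1, a synaptic membrane protein, fell in both (-0.81, SE 0.22, adjusted p = 0.00535, and -0.66, SE 0.17, adjusted p = 0.00187), and missed with TMM factors (0.0781 and 0.118). In ST against SNF 6 fell and 0 rose in RBP4, where 5.46% of all genes were lower and 5.64% higher. In VGAT 10 fell and 1 rose (Cacng4, 0.43, SE 0.15, adjusted p = 0.0404), where 11.2% were lower and 16.3% higher.

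Of 11 partners in trafficking, clustering and editing, RBP4 TRAP exceeded VGAT TRAP for 4 (12.9% of all genes) and was below it for 4 (15.1%). The pentraxins, secreted or membrane proteins that gather AMPA receptors at synapses, were higher in layer 5: Nptxr at 504 ± 56.1 against 117 ± 49.4 cpm (2.11, SE 0.22, edgeR adjusted p = 5.33e-09) and Nptx1 at 63.2 ± 11.0 against 21.2 ± 13.0 cpm (1.58, SE 0.25, adjusted p = 1.08e-05). The third pentraxin of the list, Nptx2, named after its values were seen, was at 17.3 ± 6.43 against 6.86 ± 1.596 cpm (1.34, SE 0.33, adjusted p = 0.00257). The scaffold genes Grip1 (-1.75, SE 0.18, adjusted p = 6.02e-09) and Grip2 (-1.92, SE 0.18, adjusted p = 9.41e-10), whose products bind the tails of Gria2 and Gria3, were higher in the GABAergic neurons.

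In ST against SNF some partners rose. Adarb1, the enzyme that edits the Gria2 transcript, rose from 72.6 ± 5.99 to 151 ± 32.7 cpm in RBP4 (1.06, SE 0.16, edgeR adjusted p = 0.00013) and from 74.9 ± 6.78 to 188 ± 25.2 cpm in VGAT (1.33, SE 0.11, adjusted p = 1.5e-08). Epb41l1, a cytoskeletal protein that binds Gria1, rose by 1.396 (SE 0.20, adjusted p = 8.59e-05) and 1.49 (SE 0.14, adjusted p = 7.44e-08). In all 2 of 11 rose and 1 fell in RBP4 (5.64% and 5.46% of all genes), and 4 rose and 2 fell in VGAT (16.3% and 11.2%). Against TRAP, 5 of 11 partners were higher and 3 lower in RBP4 ST (26.0% and 29.1% of all genes). In VGAT ST 6 were higher and 5 lower (6367 and 5777 of 16990 genes). Nsf, an ATPase that binds Gria2, was among the lower in both lines (-1.61, SE 0.23, edgeR adjusted p = 4.6e-06, and -1.62, SE 0.18, adjusted p = 7.23e-08).

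Across the 40 libraries genes whose log2(cpm + 1) followed the members closely, out of 10755 genes averaging 5 cpm or more, included Scn2a (Pearson r = 0.981) and Atp8a1 (0.976) for Gria3, Dgke (0.972) and Npy1r (0.967) for Gria2, and Thsd7a (0.957) for Gria1. For Gria4 they were Clcn5 (0.946) and Chrm2 (0.936), for Cacng2 Cxcl14 (0.924) and Fndc5 (0.917), for Cacng3 B3galnt1 (0.912) and Lrfn5 (0.894), and for Cnih2 Rtn2 (0.917) and Abhd17a (0.912). The libraries share fractions and pools, so these values describe the common pattern over the 8 groups and carry no test.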

How the data were processed

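Gene counts were deposited for 40 libraries, made by the authors from reads that STAR 2.0.4b had aligned to Ensembl's top-level mouse assembly and that were assigned with featureCounts 1.4.5, keeping uniquely aligned, unambiguous reads. The deposited CPM and RPKM columns were computed from those counts by the authors over all features and served here as a check on the counts. The library kit (SMARTer Ultra Low) is not stranded.

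From the counts, 390 features were left out (37 mitochondrial and 353 rRNA or tRNA), library sizes were the remaining counts (8950847 to 21976631), and edgeR 4.0.16 (R 4.3.3) quasi-likelihood models were fitted over all genes, per line (20 libraries) and over both lines (30 libraries, or 40 for comparisons with SNF), without TMM factors. As in the study's methods, genes needed 0.5 cpm in 3 samples of the fit, or in 3 TRAP or ST samples for comparisons of the lines in WCH, TRAP and ST. The study's output names a likelihood ratio, while the quasi-likelihood test is the main one here. P-values were adjusted by Benjamini-Hochberg over all genes tested. The quasi-likelihood fit was tested on simulated counts, for RBP4 ST against SNF and for TRAP between the lines. The other steps were not tested in this way. Alternatives were TMM factors, DESeq2 1.42.0, a likelihood ratio test, other filters, no genes left out, all libraries in 1 fit, the replicate number as a block, and leaving out each pool.

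Replicate numbers pair samples within a line, since the 4 samples of a replicate came from 1 pool: deviations from group means correlated at -0.009 to 0.476 (mean r) for the same pool and -0.117 to -0.002 for different pools. Members were given by name, and the members, pathway lists and marker lists were chosen with earlier results of these data known. By rule all members are named in every comparison (here some that did not pass are given as ranges or left to the figures), as are up to 2 genes per list and direction with the smallest p, as space allowed, and the 2 nearest patterns per member, but some items, a marker and a pattern among them, are not reported here. The count of candidates uses unadjusted p-values. No sequences are printed.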

Additional observations from a re-analysis of the deposited data

Results flagged for a closer look

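Of 56 groups of 5 libraries (7 genes in 8 groups), 5 held a library far from the others by Dixon's test at the 95% level, which chance alone would do in about 1 of 20 groups. VGAT SNF pool 3 was low for Gria2 (1182 cpm, the others 2270.3 to 2549), Gria3 (588 cpm, the others 830.3 to 895) and Gria4 (76.1 cpm, the others 127 to 135), and this is the library with a mitochondrial share of 41.9%. Gria4 in RBP4 TRAP pool 5 was high (40.7 cpm, the others 21.9 to 25.3), as was Gria1 in VGAT WCH pool 5 (423 cpm, the others 339 to 361).

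The change between fractions differed between the lines, by a test of the difference itself in edgeR, for Cacng2 from TRAP to ST (1.18 on the log2 scale, larger in RBP4) and, from WCH to TRAP, for Gria1 (-0.93), Gria4 (-0.82) and Cacng2 (-1.29), each lower in RBP4.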

How the results depend on the processing

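Counts below are of the 7 measured members at an adjusted p of at most 0.05. With TMM factors or DESeq2, RBP4 TRAP against WCH had 2 higher in each, and 1 (TMM) or 3 (DESeq2) lower, and RBP4 SNF against WCH had 7 higher in each. RBP4 ST against TRAP had 0 lower with TMM, DESeq2 or no filter on low counts, VGAT TRAP against WCH had 2 lower with TMM or DESeq2, and the TRAP less WCH difference between lines had 1 higher with each. In DESeq2 the ST less TRAP difference had 2 higher. With no genes left out, RBP4 SNF against WCH had 1 higher, RBP4 ST against SNF 1 lower, RBP4 ST against TRAP 3 higher, VGAT TRAP against WCH 2 lower, VGAT SNF against WCH 4 higher, and the VGAT candidates held 0 members. The RBP4 candidates held 1 member with TMM, DESeq2 or the replicate block. Without division by gene length, the Gria1 share in TRAP was 19.4% in RBP4 and 38.7% in VGAT. The Cacng2 share in the sum of Cacng2 and Cacng3 was then 10.8% and 32.9%.

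Among changes near 0, signs turned for Cacng2 in RBP4 ST against SNF (0.0916 with no genes left out), Cacng2 in VGAT ST against SNF (-0.13 in DESeq2, -0.0899 with TMM, -0.0057 with the replicate block) and ST against TRAP (0.014 in DESeq2), and Cacng3 in VGAT ST against TRAP (-0.0752 with no genes left out, -0.0157 with the replicate block). Between lines in ST, the replicate block gave -0.0199 for Gria3 and -0.0064 for Cacng3. The labels link pools of the lines only by replicate number. Same-numbered deviations correlated at 0.045 to 0.219 (mean r), with single pairs from -0.479 (ST) to 0.755 (SNF). Whether same-numbered pools of the lines shared a preparation was not tested. The block changed no other count by over 1.5 times. The causes were not tested.

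Leaving out single pools, RBP4 TRAP against WCH had 0 to 1 higher (0 without pool 2 or 3), RBP4 SNF against WCH 3 to 5 higher, RBP4 ST against SNF 0 to 1 higher and 0 to 4 lower, RBP4 ST against TRAP 3 to 4 higher (3 without pool 2) and 0 to 1 lower (0 without pool 1, 3 or 4), VGAT TRAP against WCH 2 to 4 lower (2 without pool 5), TRAP between lines 0 to 3 higher in RBP4 (0 without RBP4 pool 4 or VGAT pool 2), the TRAP less WCH difference 1 to 3 lower (1 without VGAT pool 4) and the ST less TRAP difference 0 to 3 lower (3 without RBP4 pool 2). The log2 ranges that crossed 0 were -0.0065 to 0.51 for Gria2 in RBP4 ST against TRAP, -0.0731 to 0.101 for Cacng2 in VGAT ST against SNF, -0.12 to 0.0043 for Cacng2 and -0.0558 to 0.14 for Cacng3 in VGAT ST against TRAP, -0.15 to 0.11 for Gria1 between lines in SNF, and, between lines in ST, -0.26 to 0.24 for Gria2, -0.27 to 0.18 for Gria3 and -0.26 to 0.19 for Cacng3. Depth did not limit the measured members, while 5 pools per group limit the precision, and Cacng8 was not measured.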
